A study of Mus musculus with 12 samples.

Results

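The comparison described here is that of mouse Th17 cells given Kira8 and Stattic together with Th17 cells given no inhibitor, 6 of the 12 samples of the study. Wild-type naive T cells from lymph nodes had been differentiated into Th17 cells, a helper lineage that secretes IL-17, and cultured in serum-containing medium. The samples named Kira8+Stattic (3 samples) then received both inhibitors for 4 h, and those named None (3 samples) received neither. All 6 samples of the 2 groups were taken, and 3 samples each of Kira8 alone and Stattic alone are used only for the direct comparisons at the end. The labels give no time for None, so a difference in time of culture cannot be told apart from the inhibitors. Nothing in the labels tells separate cultures or animals from repeat preparations, or says that None was given solvent. The p-values therefore measure only how these samples vary, and that variation may be technical.

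Kira8 inhibits IRE1alpha, a sensor of stress in the endoplasmic reticulum (ER) and the product of Ern1. Active IRE1alpha cuts Xbp1 mRNA, and the rejoined transcript encodes a transcription factor. Stattic was made as an inhibitor of STAT3, the factor through which IL-23, IL-21 and IL-6 act on the genes of the Th17 programme. Th17 cells secrete large amounts of cytokine, and both the capacity to fold secreted proteins and the supply of BCL2-family survival proteins bear on how long such cells live.

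The 6 libraries held 51.7 M to 85.9 M counts each, of which 3.38% to 4.6% in None and 3.68% to 4.56% in Kira8+Stattic came from mitochondrial transcripts. The 10 genes with most counts took 5.19% to 6.54% of a None library and 9.42% to 12.3% of a Kira8+Stattic library. The first principal component held 67.2% of the variance and separated the groups, and the second, with 13.4%, separated None replicate 1 from the others. Markers of helper T cells were present in all 6 libraries, with Cd4 at 352 to 410 CPM in None and 380 to 413 CPM in Kira8+Stattic. Of 10 such genes 3 fell (30.0%), among them Cd5 and Cd3e, and 1 rose (10.0%), Cd3d, against 22.2% and 22.4% of all genes tested. Their median log2 change was -0.04. B cell markers were present as well and were lower with the inhibitors: the summed level of 14 such genes was 410 to 494 CPM in None and 84.0 to 155 CPM in Kira8+Stattic, none of them was at 0 in all 6 libraries, and 11 of 14 fell. The 14 marker genes for CD8 T or NK cells summed to 1190 to 2040 CPM in None and 232 to 353 CPM in Kira8+Stattic. Gzmb alone, given below with the genes that IL-2 induces, held most of the sum in None. Of the 12 marker genes tested 8 fell and 1 rose. In such bulk samples fewer cells of a type and less RNA per cell cannot be told apart.

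With both inhibitors the RNA of these cells differed broadly from None, with nearly equal numbers of genes up and down under the scaling used here. Most of the tested heat-shock chaperones, genes of cholesterol synthesis and genes of cytosolic ribosomal proteins rose. Most T cell cytokines, chemokines, genes induced by IL-2 and genes of ribosome biogenesis fell, as did all tested interferon-inducible GTPases. The pro-survival genes Bcl2 and Bcl2l1 fell while Mcl1 rose, and most BH3-only genes, which promote apoptosis, rose.

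Of 18593 genes tested, 8282 (44.5%) passed an adjusted p of 0.05. Every adjusted p given here comes from the quasi-likelihood test of edgeR with Benjamini-Hochberg adjustment over all genes tested. Of these, 4156 were higher with the inhibitors (22.4% of genes tested) and 4126 were lower (22.2%). The 3 samples of one group did not overlap with the 3 of the other in 10751 genes (57.8%), among them 4109 of the genes called higher and 4071 of those called lower. The median log2 change over all genes tested was 0.05, so changes below are close to changes relative to the typical gene. Large rises outnumbered large falls: 1648 genes rose more than 4-fold and 622 fell more than 4-fold, and past 16-fold there were 509 and 72. The calls include 143 genes without a count in None and 26 without one in Kira8+Stattic, whose fitted change depends on the prior count. Calls of any size leaned to falls among protein-coding genes, where 27.4% fell and 21.1% rose. Genes called higher took 20.4% of the scaled counts of tested genes in None and 43.2% in Kira8+Stattic, whereas genes called lower went from 34.7% to 15.2%. Levels are in CPM, counts relative to the TMM-scaled library size, and are given in the order of replicates 1, 2 and 3, and each log2 change is given with its standard error over 3 against 3 libraries.

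**Figure D1:**
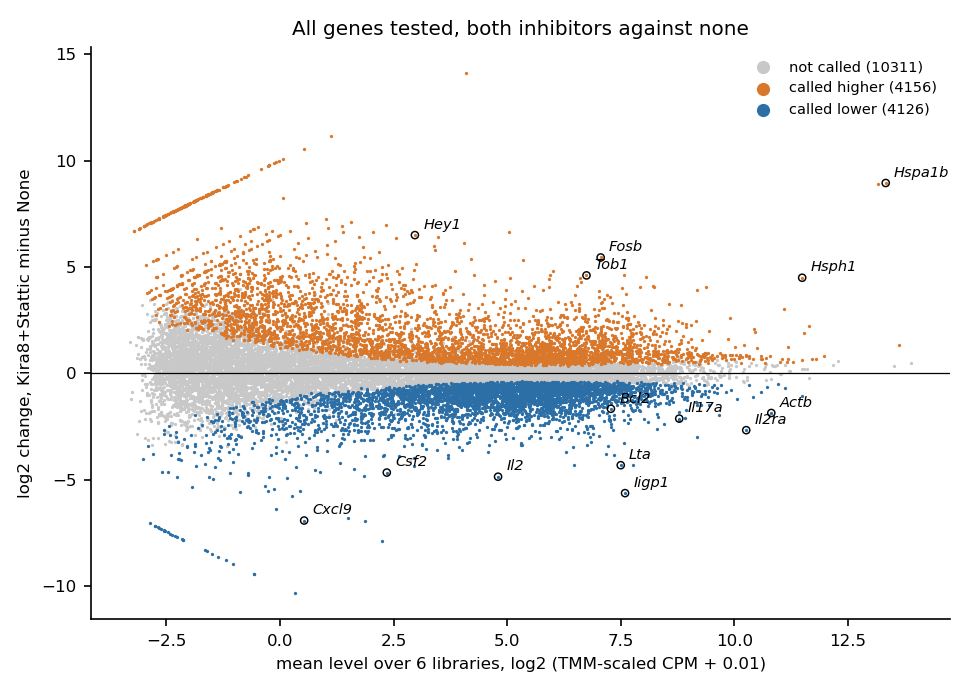
Log2 change of Kira8+Stattic against None (vertical axis) against the mean level over the 6 libraries, log2 of CPM with 0.01 added (horizontal axis), with 1 point for each of 18593 genes, coloured by call. Called genes lie on both sides of 0 at all levels, with Hspa1b far right and up at 8.95; the slanted rows of points at the left are genes without a count in one group, whose fitted change depends on the prior count.

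Heat-shock genes included the largest rise among genes with a mean of at least 5 CPM and counts in both groups, that of Hspa1b. Hspa1b (chromosome 17, 34956436 to 34959238, minus strand, mm10) encodes an inducible cytosolic HSP70 that refolds damaged proteins. It stood at 5.20, 49.4 and 70.3 CPM in None and at 11710, 21130 and 28770 CPM with both inhibitors, a log2 change of 8.95 ± 0.97 (edgeR adjusted p = 1.22e-04). The groups were far apart, and None replicate 1 was well below the other None samples. Its near-identical neighbour Hspa1a (chromosome 17, 34969190 to 34972156) had 4.21, 45.1 and 63.7 CPM against 10040, 18460 and 26340 CPM (8.92 ± 1.01). Reads of the pair may be split between them, since the treatment of multiply mapping reads in counting is not known here.

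Other chaperones rose with the HSP70 genes, each with groups that did not overlap. Hsph1, the HSP110 exchange factor that works with HSP70, was at 162, 334 and 239 CPM in None and at 3130, 6835 and 6570 CPM with both inhibitors (4.49 ± 0.38, adjusted p = 3.57e-05, edgeR). The HSP40 cochaperone Dnajb1 went from 69.6, 78.4 and 78.7 to 874, 1295 and 1598 CPM (4.05 ± 0.25). Bag3, the cochaperone that hands HSP70 clients to autophagy, went from 13.7, 14.6 and 15.9 to 232, 414 and 454 CPM (4.64 ± 0.28). In these 4 genes Kira8+Stattic replicate 1 was the lowest treated sample and lay well above every None sample. Of 34 tested HSF1 targets and cytosolic chaperones 23 rose and 2 fell, the list's median being 1.10 against 0.05 for all genes. The fallen pair was Hsf1 itself (-1.18), the gene of the heat-shock transcription factor, and Hspbp1 (-0.78). Hspa8, the constitutive HSP70, was at 3674 to 4650 CPM in None and at 4348 to 7737 CPM with both inhibitors and was not called (0.56 ± 0.23, adjusted p = 0.0717, edgeR). Hsp90aa1, the stress-inducible HSP90, rose by 2.20 ± 0.27 and Hsp90ab1, the constitutive form, by 0.82 ± 0.18.

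HSF1 binds repeats of the letters GAA in alternating orientation, and 3 promoters of genes that rose are shown for that reason, from RefSeq on GRCm38.p6, the assembly also called mm10. Each is the 250 bases before the transcription start, 5′ to 3′ on the gene's strand, and capitals mark matches to GAANNTTC or TTCNNGAA, a minimal element searched on both strands.
Hspa1b, chr17:34959239-34959488, minus strand: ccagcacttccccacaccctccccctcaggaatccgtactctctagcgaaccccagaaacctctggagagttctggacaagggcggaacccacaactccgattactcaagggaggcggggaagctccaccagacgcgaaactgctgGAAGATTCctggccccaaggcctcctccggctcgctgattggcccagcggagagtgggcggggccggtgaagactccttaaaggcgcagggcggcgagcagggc
Hsph1, chr5:149636316-149636565, minus strand: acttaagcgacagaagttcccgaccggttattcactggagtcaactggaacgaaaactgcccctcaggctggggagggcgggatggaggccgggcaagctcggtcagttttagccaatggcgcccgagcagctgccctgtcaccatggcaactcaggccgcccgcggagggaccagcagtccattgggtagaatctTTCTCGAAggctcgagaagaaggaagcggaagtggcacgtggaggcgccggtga
Hspe1, chr1:55087898-55088147, plus strand: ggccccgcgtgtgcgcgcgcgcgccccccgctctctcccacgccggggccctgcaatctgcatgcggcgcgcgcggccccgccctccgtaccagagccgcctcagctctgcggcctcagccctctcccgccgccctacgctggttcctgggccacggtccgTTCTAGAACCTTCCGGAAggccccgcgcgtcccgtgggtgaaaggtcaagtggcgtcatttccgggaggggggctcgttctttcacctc
The match begins 104 bases before the start in Hspa1b and 54 bases before it in Hsph1. Hspe1, which encodes the mitochondrial cochaperonin HSP10, has 3 overlapping matches beginning 89, 84 and 79 bases before its start, and rose from 109.6, 98.2 and 89.5 to 193, 315 and 384 CPM (1.58 ± 0.24). Over windows of 250 bases before to 50 after a start, 14 of the 28 list genes with a RefSeq promoter held the element, against 14.1% of the 11476 tested genes with one and 15.1% of all 32851 windows. Among all genes called the share did not stand out, at 14.3% of the 2440 that rose and 14.4% of the 3051 that fell. A match in letters is a description of the sequence and not a measured binding site.

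**Figure D2:**
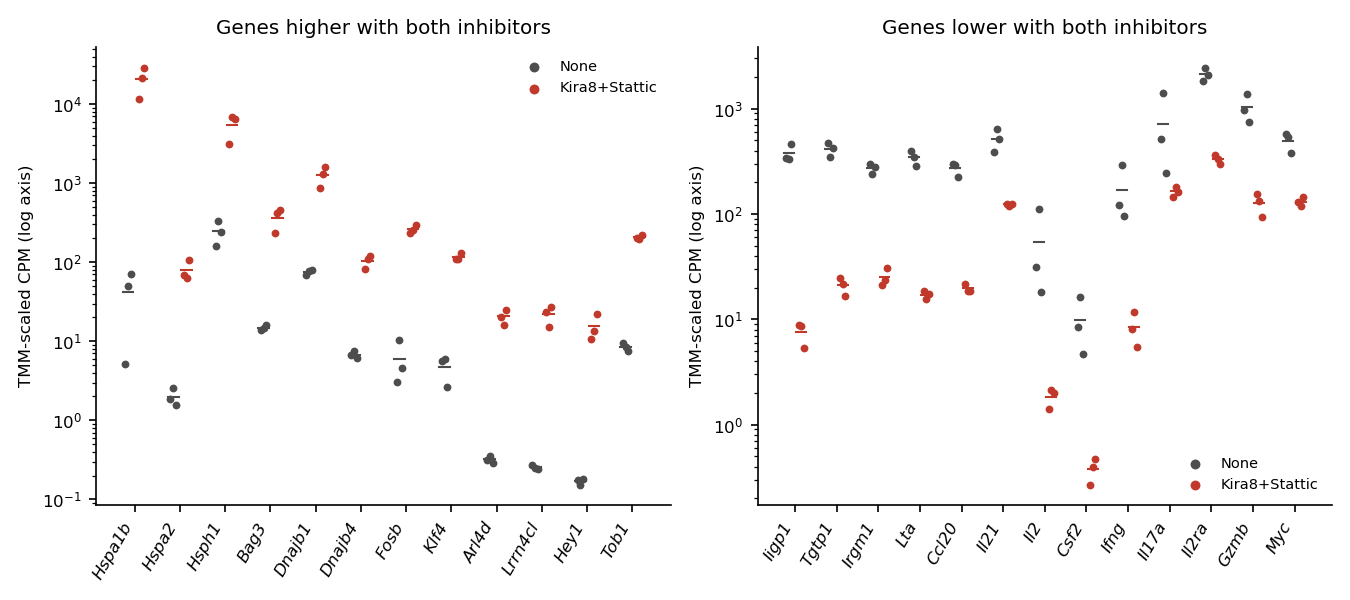
Levels in each library, in CPM on a log axis, of 12 genes that rose (left) and 13 that fell (right), with None in grey, Kira8+Stattic in red and short lines at the group means. In all 25 genes the treated and None libraries do not overlap, as in 57.8% of all genes tested. Several of the 25 were named by a rule that asks for groups without overlap. The groups lie most widely apart for Hspa1b and Hey1 on the left and Iigp1 on the right.

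The genes of the unfolded protein response, the pathway that IRE1alpha serves, did not move as a block. Ern1 (chromosome 11, 106394650 to 106487852, minus strand) had 11.5, 24.9 and 22.3 CPM in None and 31.6, 33.2 and 32.2 CPM with both inhibitors (0.73 ± 0.26, adjusted p = 0.0439, edgeR). The groups did not overlap, but the Ern1 call ended without None replicate 3 (adjusted p = 0.0701) or without any treated library (0.0851 to 0.126), and also with scaling by library size alone (0.0876). Xbp1 (chromosome 11, 5520659 to 5525893, plus strand) was at 235, 223 and 180 CPM in None and at 191, 194 and 218 CPM with both inhibitors, overlapping groups with a change of -0.08 ± 0.16. Gene counts do not show how much of this mRNA was spliced. Hspa5, which encodes the ER chaperone BiP, was at 912, 1659 and 846 CPM against 1066, 1060 and 1472 CPM, again overlapping and not called (0.07 ± 0.27).

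Many genes of ER folding and export fell. Of 22 ATF6 targets and ER chaperones 10 fell and 2 rose (median -0.46). Pdia4, a disulfide isomerase, fell from 124, 145 and 94.6 to 46.8, 42.5 and 45.1 CPM (-1.44 ± 0.18), and Hyou1, the HSP110 relative of the ER, from 232, 419 and 288 to 131, 113 and 121 CPM (-1.36 ± 0.22). Herpud1, which helps degrade ER proteins, and P4hb, a disulfide isomerase, rose by 1.02 ± 0.19 and 0.87 ± 0.16. Of 40 targets of spliced XBP1 19 fell and 6 rose (median -0.39). Those that fell include the translocon and glycosylation genes Rpn1 (-1.13), Stt3a (-0.99), Tram1 (-0.98) and Sec61a1 (-0.59) and the cargo receptor Lman1 (-1.51). Dnajb9, an ER cochaperone that binds IRE1alpha, went the other way, from 20.6, 28.4 and 18.5 to 148, 154 and 207 CPM (2.91 ± 0.22, adjusted p = 2.28e-05, edgeR), and Edem3, which trims glycans of misfolded proteins, rose by 2.19 ± 0.24. Among 9 tested substrates of IRE1-dependent RNA decay 3 rose (33.3%), with Bloc1s1 at 0.82, and 2 fell (22.2%). These shares are near the 22.4% and 22.2% of all genes.

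Genes in the branch of the stress response that runs through eIF2alpha phosphorylation and ATF4 rose in part. Ddit3, the gene of the stress factor CHOP (chromosome 10, 127290774 to 127296288, plus strand), went from 13.9, 12.8 and 13.8 CPM to 89.8, 120 and 118 CPM (3.02 ± 0.17, adjusted p = 9.75e-06, edgeR). Ppp1r15a, whose product GADD34 reverses eIF2alpha phosphorylation, went from 28.1, 33.1 and 22.2 to 428, 396 and 551 CPM (4.04 ± 0.22), and Eif2ak3, the gene of the sensor kinase PERK, from 21.9, 29.5 and 29.5 to 155, 174 and 216 CPM (2.75 ± 0.20). None of these groups overlapped. Of 36 ATF4 and CHOP targets 18 rose and 3 fell (median 0.63), with Atf4 itself at 1.03 ± 0.16, Trib3 at 2.83 ± 0.25 and the mTORC1 inhibitors Sesn2 and Ddit4 at 2.67 ± 0.22 and 2.44 ± 0.18. Genes of serine and asparagine synthesis on the same list did not follow: Asns was at 48.9 to 73.7 CPM in None and at 52.1 to 78.4 CPM with both inhibitors, Phgdh and Psat1 were not called, and Shmt2 fell by 0.80 on the log2 scale. Of 20 aminoacyl-tRNA synthetases, a separate list, 8 fell and 3 rose (median -0.32).

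ATF4 with a partner recognises a composite element, and the promoters of Atf3, a stress-induced transcription factor, and Chac1, which degrades glutathione, are printed because both genes rose and hold it. Capitals mark TGATGNAA on either strand in the 250 bases before the start.
Atf3, chr1:191183334-191183583, minus strand: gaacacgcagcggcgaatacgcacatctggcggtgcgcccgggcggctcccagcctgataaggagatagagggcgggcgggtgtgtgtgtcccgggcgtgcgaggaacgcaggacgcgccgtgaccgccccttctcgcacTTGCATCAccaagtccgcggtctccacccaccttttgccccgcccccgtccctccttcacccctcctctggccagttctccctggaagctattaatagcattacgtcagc
Chac1, chr2:119350992-119351241, plus strand: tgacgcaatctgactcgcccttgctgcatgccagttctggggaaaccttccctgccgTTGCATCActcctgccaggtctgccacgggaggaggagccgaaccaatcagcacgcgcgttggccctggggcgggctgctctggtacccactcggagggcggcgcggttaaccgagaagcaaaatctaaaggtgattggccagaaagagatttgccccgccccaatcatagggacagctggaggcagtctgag
In Atf3 the match begins 110 bases before the start, and in Chac1 193 bases before it. Atf3 had 19.2, 32.8 and 14.6 CPM in None and 88.6, 147 and 178 CPM with both inhibitors (2.63 ± 0.34), and Chac1 had 2.72, 2.21 and 2.53 CPM against 13.6, 20.2 and 21.6 CPM (2.89 ± 0.24). The element was in 30.0% of the 30 list genes with a promoter, against 2.79% of the tested genes with one and 3.97% of all windows. Lists with more falls than rises held it as well: 5 of 12 aminoacyl-tRNA synthetases (41.7%) and 3 of 7 anti-apoptotic BCL2 genes (42.9%). It was in 2.95% of the genes that rose and 2.52% of those that fell.

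Genes of the BCL2 family set against each other the proteins that keep mitochondria intact and the BH3-only proteins that oppose them. Bcl2 (chromosome 1, 106538178 to 106714274, minus strand) was at 206, 198 and 308 CPM in None and at 91.5, 74.3 and 57.5 CPM with both inhibitors (-1.67 ± 0.23, adjusted p = 4.5e-04, edgeR). Bcl2l1, which encodes BCL-XL (chromosome 2, 152780668 to 152831728, minus strand), fell from 133, 202 and 109 to 39.6, 36.5 and 42.5 CPM (-1.90 ± 0.23, adjusted p = 1.91e-04, edgeR). In both genes all treated samples were below all None samples. Bcl2l2, for BCL-W, fell by 1.03 on the log2 scale, and Bcl2a1b and Bcl2a1d, near-identical copies, overlapped between the groups at 47.7 to 73.5 and 51.7 to 67.9 CPM for Bcl2a1b. Mcl1 (chromosome 3, 95658788 to 95663176, plus strand) rose, from 414, 445 and 504 to 667, 846 and 912 CPM (0.83 ± 0.17, adjusted p = 0.00402, edgeR), without overlap.

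Of 13 BH3-only genes and effectors 8 rose and 3 fell, with a median of 1.49. Bcl2l11, the gene of BIM (chromosome 2, 128126038 to 128162547, plus strand), rose from 36.4, 36.2 and 40.5 to 87.3, 137 and 127 CPM (1.64 ± 0.19, adjusted p = 1.61e-04, edgeR). Bbc3, which encodes PUMA, rose from 8.01, 3.25 and 6.99 to 38.3, 49.5 and 66.8 CPM (3.08 ± 0.34), and Pmaip1, which encodes the MCL1 antagonist NOXA, from 29.7, 41.6 and 28.5 to 104, 114 and 97.7 CPM (1.66 ± 0.18). The BH3-only genes Bmf, Bnip3 and Bnip3l rose by 2.94, 2.17 and 1.49. The effector Bak1 fell (-0.85 ± 0.17), Bax was not called (-0.10 ± 0.17), and Bid, which links death receptors to mitochondria, fell from 28.6, 29.7 and 23.4 to 6.64, 4.17 and 4.77 CPM (-2.39 ± 0.22). No group of the 3 rising genes given by sample overlapped with its counterpart.

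The death receptor side of the pathway was lower. Of 27 caspases and death receptor genes 15 fell and 3 rose (median -0.69). The ligand Tnfsf10, for TRAIL, fell from 51.8, 76.4 and 62.9 to 13.4, 11.6 and 6.87 CPM (-2.59 ± 0.26), its receptor Tnfrsf10b by 2.08 and Fasl by 1.61 on the log2 scale, and the adaptor Fadd by 1.33. Casp8, the initiator caspase of death receptors, fell by 0.86 on the log2 scale. Cflar, which encodes the caspase-8 inhibitor FLIP, was not called at 107, 204 and 164 against 173, 266 and 317 CPM. Among 30 p53 targets 14 rose (46.7%), including Cdkn1a (1.48), Mdm2 (1.77) and Gadd45a (4.49). Another 8 fell (26.7%), including Aen (-2.70) and Ccng1 (-1.10), against 22.4% rising and 22.2% falling over all genes.

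**Figure D3:**
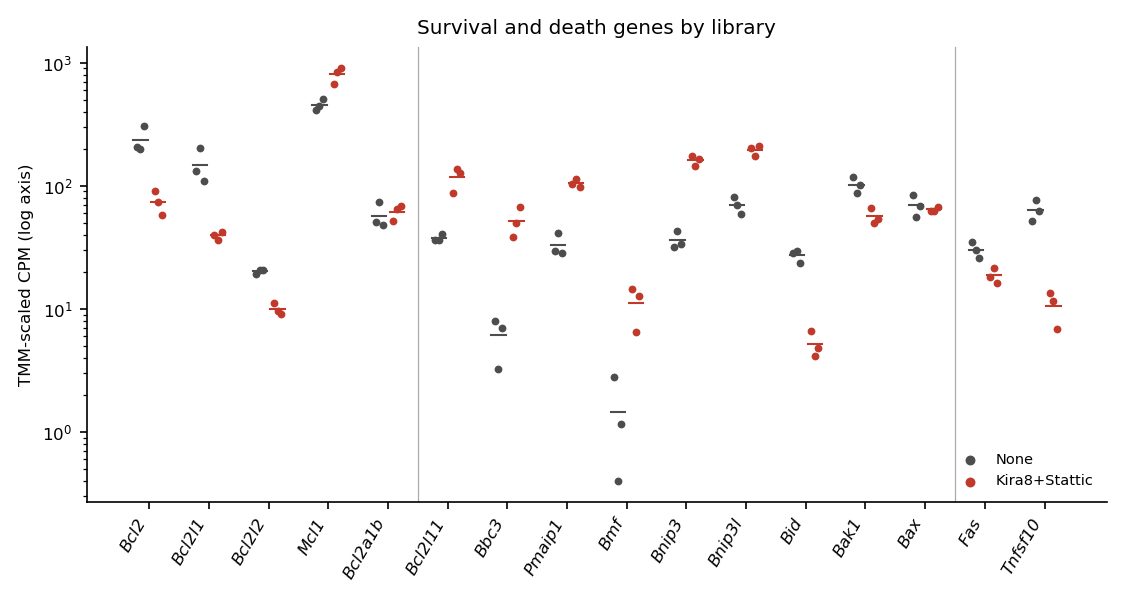
Levels in each library (CPM, log axis) of anti-apoptotic genes (left), BH3-only genes and effectors (middle) and death receptor genes (right), with None in grey, Kira8+Stattic in red and short lines at the group means. Bcl2, Bcl2l1 and Bcl2l2 lie lower and Mcl1 higher in the treated libraries, and Bbc3, Bmf, Bcl2l11 and Pmaip1 lie higher, while Bcl2a1b and Bax overlap.

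The genes listed as STAT3 targets moved in both directions. Stat3 itself (chromosome 11, 100885098 to 100939540, minus strand) had 314, 339 and 369 CPM in None and 565, 557 and 474 CPM with both inhibitors (0.64 ± 0.15, adjusted p = 0.00798, edgeR). Socs3, the feedback inhibitor that STAT3 induces, was at 155, 111 and 155 CPM against 156, 136 and 157 CPM and was not called (0.10 ± 0.17). Of 27 STAT3 targets 9 rose (33.3%) and 10 fell (37.0%), against 22.4% and 22.2% of all genes (median -0.02). Bcl6, the follicular helper factor, rose from 12.7, 23 and 14.2 to 130, 174 and 164 CPM (3.23 ± 0.25), and Ccnd1 and Bcl3 fell by 2.13 and 1.56 on the log2 scale.

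Th17 cytokines fell, and the transcription factors of the lineage were mixed. Il17a (chromosome 1, 20730905 to 20734496, plus strand) was at 517, 1393 and 247 CPM in None and at 146, 182 and 163 CPM with both inhibitors (-2.13 ± 0.51, adjusted p = 0.00768, edgeR). The treated samples were alike and below every None sample, and None replicate 2 was well above the other None samples. Without None replicate 2 the Il17a change was -1.23 (adjusted p = 0.012). Il17f (chromosome 1, 20777146 to 20790617, minus strand) had 452, 978 and 218 CPM against 214, 174 and 219 CPM, groups that overlapped (-1.44 ± 0.44, adjusted p = 0.0230, edgeR), and its call ended without None replicate 2 (-0.73, adjusted p = 0.0802) or any treated library (0.0673 to 0.101). Il21, the autocrine Th17 cytokine, fell from 391, 635 and 511 to 124, 120 and 125 CPM (-2.06 ± 0.20), and Ccl20, the chemokine ligand of CCR6, from 298, 294 and 222 to 21.8, 18.4 and 18.7 CPM (-3.79 ± 0.19). Of 25 Th17 signature genes 11 fell (44.0%) and 6 rose (24.0%), against 22.2% and 22.4% of all genes. Rora, for a nuclear receptor of the lineage, rose from 38, 122 and 50 to 306, 368 and 370 CPM (2.32 ± 0.39), the factors Maf and Irf4 fell by 0.89 and 1.23 on the log2 scale, and Il23r overlapped at 10.2, 19.3 and 13.3 against 11.8, 17.5 and 13.1 CPM.

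No tested gene of the T cell cytokine list rose: of 25, 19 fell and 6 were not called. Il2 (chromosome 3, 37120523 to 37125959, minus strand) had 31.6, 112 and 18.0 CPM in None and 1.41, 2.13 and 1.98 CPM with both inhibitors (-4.87 ± 0.65, adjusted p = 3.56e-04, edgeR). Its None samples varied widely, and without None replicate 2 the Il2 change was -3.75. Lta, for lymphotoxin alpha (chromosome 17, 35203165 to 35205351, minus strand), fell from 395, 350 and 288 to 18.6, 15.5 and 17.4 CPM (-4.33 ± 0.19, adjusted p = 4.36e-06, edgeR), with little spread in either group. Csf2, the gene of GM-CSF, fell from 8.53, 16.2 and 4.73 to 0.27, 0.399 and 0.468 CPM (-4.67 ± 0.49), Ifng from 121, 289 and 96.5 to 8.07, 11.8 and 5.46 CPM (-4.32 ± 0.46), and Il10 from 22.1, 27.7 and 28.3 to 4.09, 6.45 and 4.93 CPM (-2.33 ± 0.22). In the list for pathogenic Th17 cells 12 of 20 genes fell and 0 rose (median -1.54), Tbx21, the T-bet gene, by 2.62 on the log2 scale. Il3 had counts in every None library and none in any treated one, at least 27.1-fold lower against a floor of 3 counts per library.

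The genes that IL-2 induces through STAT5 fell nearly throughout, 16 of 18 with 1 that rose (median -1.83). Il2ra, the high-affinity receptor chain, went from 1849, 2439 and 2074 to 365, 331 and 298 CPM (-2.68 ± 0.18, adjusted p = 1.69e-05, edgeR), and Cish, the STAT5 feedback gene, from 448, 454 and 453 to 152, 150 and 163 CPM (-1.54 ± 0.14). The groups of both were far apart with little spread inside them. Gzmb, for the cytotoxic protease granzyme B, fell from 970, 1368 and 744 to 154, 133 and 93.5 CPM (-3.02 ± 0.28), and Foxp3 by 1.92. The gene that rose was Ctla4, an inhibitory receptor, from 545, 688 and 611 to 1350, 1568 and 1397 CPM (1.23 ± 0.16). Gzmb also belongs to the markers of CD8 T and NK cells, among which Prf1 fell by 2.61 on the log2 scale and Cd8a fell from 81.8, 150 and 80.3 to 25.3, 34.5 and 15.5 CPM while Cd8b1 overlapped at 12.2 to 25.9 and 10.8 to 16.3 CPM. The part of such cells in these falls was not tested.

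Surface and signalling genes of activated T cells were mostly lower too. Of 13 chemokines 10 fell and 1 rose, of 23 homing receptors and integrins 14 fell and 2 rose, of 22 TNF superfamily genes 16 fell and 3 rose, and of 30 NF-kB subunits, inhibitors and targets 18 fell and 3 rose. The inflammatory chemokines Ccl3 and Ccl4 fell by 3.37 ± 0.27 and 3.69 ± 0.29 on the log2 scale, and Ccr6, the mucosal homing receptor of Th17 cells, from 33.4, 122 and 54.3 to 17.1, 10.4 and 11.9 CPM (-2.41 ± 0.43). Cxcr4 moved in the opposite direction, from 23.6, 31.9 and 18.4 to 210, 257 and 260 CPM (3.30 ± 0.23, adjusted p = 1.77e-05, edgeR). Cd40, a receptor of B cells and other antigen-presenting cells, fell by 3.86 ± 0.30, beside falls of Ms4a1 (-3.60) and Pax5 (-3.0) among the B cell markers, and Cd79b, with 4.80 to 9.24 CPM against 1.53 to 4.09 CPM, was not called. How far B cells account for these values was not tested.

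Interferon-inducible GTPases, which attack vacuoles of intracellular pathogens and are induced by interferon-gamma, fell without exception on the list used: 18 of 18, with a median of -2.54. Iigp1 went from 342, 334 and 460 to 8.84, 8.69 and 5.31 CPM (-5.64 ± 0.27, adjusted p = 5.93e-06, edgeR), the largest fall under the rule for naming genes. Irgm1 went from 299, 238 and 277 to 21.2, 23.8 and 30.8 CPM (-3.42 ± 0.20) and Gbp7 from 68.3, 82.6 and 68.3 to 7.53, 7.81 and 5.57 CPM (-3.39 ± 0.19). All 3 genes had groups far apart. Tgtp1 fell by 4.30 ± 0.22 and its near-identical copy Tgtp2 by 3.87 ± 0.23, reads of which may be shared. Irf1, an interferon-induced transcription factor, fell from 385, 274 and 340 to 99.0, 107 and 93.5 CPM (-1.74 ± 0.17).

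STAT factors bind palindromes with a spacer of 3 bases, and the promoters of 3 genes that fell are printed with TTCNNNGAA in capitals, searched in the 250 bases before the start.
Tgtp1, chr11:48992247-48992496, minus strand: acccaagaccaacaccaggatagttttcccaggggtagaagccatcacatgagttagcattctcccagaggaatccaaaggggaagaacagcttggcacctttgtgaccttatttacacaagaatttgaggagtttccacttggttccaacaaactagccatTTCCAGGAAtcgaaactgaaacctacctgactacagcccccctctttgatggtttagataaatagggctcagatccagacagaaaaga
Gbp7, chr3:142530086-142530335, plus strand: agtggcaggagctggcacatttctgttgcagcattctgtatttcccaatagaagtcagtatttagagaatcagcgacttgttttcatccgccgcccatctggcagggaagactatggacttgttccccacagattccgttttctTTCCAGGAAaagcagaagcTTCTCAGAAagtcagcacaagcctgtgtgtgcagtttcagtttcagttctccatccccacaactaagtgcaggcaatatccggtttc
Irf1, chr11:53769764-53770013, plus strand: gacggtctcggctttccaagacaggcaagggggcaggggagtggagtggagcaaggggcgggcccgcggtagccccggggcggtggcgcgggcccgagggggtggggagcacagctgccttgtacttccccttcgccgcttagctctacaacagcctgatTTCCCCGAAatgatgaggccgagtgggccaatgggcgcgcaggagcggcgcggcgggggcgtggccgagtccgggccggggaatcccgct
The matches begin 88 bases before the start in Tgtp1, 106 and 87 bases before it in Gbp7 and 90 bases before it in Irf1. Of the 10 GTPase genes with a RefSeq promoter 6 held the letters, against 8.29% of the tested genes with a promoter and 8.3% of all windows. They were in 10.1% of all genes that fell and 7.3% of those that rose.

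Other interferon-stimulated genes were divided. Of 34 tested 16 fell and 5 rose (median -1.0), and of 18 genes of MHC class I presentation 10 fell and 0 rose. Cxcl10, a chemokine induced by interferon-gamma, fell from 20.4, 17.1 and 13.6 to 1.64, 0.681 and 1.91 CPM (-3.58 ± 0.37), and Tap1, the peptide transporter, from 459, 383 and 496 to 179, 173 and 148 CPM (-1.42 ± 0.17). Antiviral genes that rose did so from low levels: Rsad2, for viperin, from 0.406, 0.585 and 0.741 to 5.31, 5.78 and 7.28 CPM (3.40 ± 0.34), Mx2 by 3.36, Oasl1 by 4.03 and Isg15 by 1.87.

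Immediate-early genes rose in part. Fosb, an AP-1 subunit, was at 3.06, 10.3 and 4.64 CPM in None and at 232, 254 and 295 CPM with both inhibitors (5.44 ± 0.43, adjusted p = 2.87e-05, edgeR). Fos, Jun, Fosl2 and Maff rose by 2.74, 2.11, 2.31 and 3.03, whereas Egr1, at 277 to 366 CPM in None and 279 to 326 CPM with both inhibitors, Egr2 and Nr4a1 overlapped and were not called. Of 25 EGR, NR4A and AP-1 genes 10 rose and 4 fell. Phosphatases and adaptors that damp MAP kinase signalling rose in 11 of 16 genes with none falling (median 1.48), Dusp1 from 11.2, 16.9 and 9.0 to 120, 110 and 151 CPM (3.35 ± 0.26). Of 12 Kruppel-like factors 7 rose and 1 fell, Klf4 from 5.61, 5.97 and 2.60 to 111, 109 and 132 CPM (4.63 ± 0.31).

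Genes tied to T cell quiescence and to G1 moved in both directions. Tob1, an antiproliferative partner of the deadenylase complex, went from 9.49, 8.49 and 7.5 to 201, 197 and 221 CPM (4.6 ± 0.17, adjusted p = 3.52e-06, edgeR), with little spread in either group. Of 24 genes of naive and quiescent T cells 11 rose and 4 fell, with Foxo1 (1.12) and Tsc22d3 (2.51) up and Slfn2 (-2.62) and Ccr7 (-0.78) down. Klf2 overlapped at 13.9 to 50.4 and 31.6 to 40.6 CPM. The CDK inhibitor Cdkn1b, for p27, rose from 51.8, 45.9 and 83.7 to 342, 317 and 367 CPM (2.5 ± 0.24) and Cdkn1c by 3.56, while Ccnd2 fell from 887, 1653 and 1327 to 290, 347 and 342 CPM (-1.98 ± 0.23) and Cdk6 by 2.31. Of 25 G1 cyclins, CDKs and their inhibitors 9 fell (36.0%) and 6 rose (24.0%). Of 45 DNA replication genes 16 fell (35.6%) and 7 rose (15.6%), and of 39 mitosis genes 8 fell (20.5%) and 6 rose (15.4%), against 22.2% and 22.4% of all genes.

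**Figure D4:**
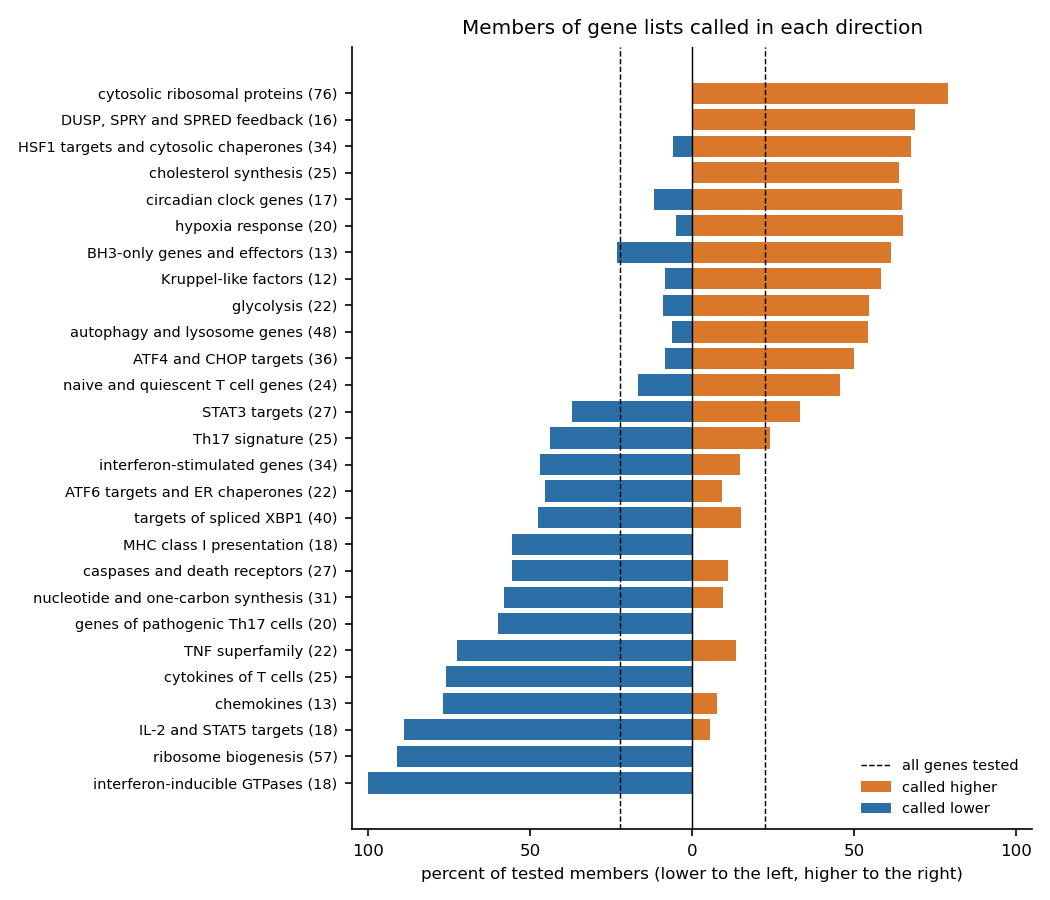
Percent of tested members called lower (blue, to the left) and higher (orange, to the right) for 27 gene lists, with the number of tested members in brackets and dashed lines at the shares of all genes tested, 22.2% lower and 22.4% higher. The interferon-inducible GTPases reach 100% on the left, and the cytosolic ribosomal proteins reach 78.9% on the right.

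Genes of ribosome production moved apart from genes of the ribosome's own proteins. Of 57 ribosome biogenesis genes, which make and process ribosomal RNA in the nucleolus, 52 fell and none rose (median -1.41). Nop2, a ribosomal RNA methyltransferase, fell from 265, 266 and 266 to 56.5, 39.1 and 41.1 CPM (-2.54 ± 0.18, adjusted p = 1.99e-05, edgeR), and Polr1b, the second largest subunit of RNA polymerase I, from 161, 241 and 217 to 28.1, 19.9 and 17.9 CPM (-3.23 ± 0.23). Myc, the factor that drives these genes, fell from 570, 539 and 382 to 131, 119 and 143 CPM (-1.92 ± 0.19), and its antagonists Mxd1, Mxi1 and Mxd4 rose by 2.12, 1.22 and 1.93. Of 76 cytosolic ribosomal protein genes 60 rose and none fell (median 0.73), each by little: Rpl31 went from 482, 376 and 469 to 718, 820 and 957 CPM (0.91 ± 0.18) and Rpsa from 2958, 2300 and 2500 to 3814, 3827 and 4747 CPM (0.68 ± 0.18). With scaling by library size alone the median over all genes moved from 0.05 to -0.12, a shift smaller than either of these list medians.

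Several lists of biosynthetic genes held more falls than rises. Of 31 genes of nucleotide and one-carbon synthesis 18 fell and 3 rose, Pfas, a purine enzyme, from 122, 209 and 212 to 37.2, 21.6 and 20.0 CPM (-2.79 ± 0.30). Of 58 mitochondrial ribosomal proteins 24 fell and 3 rose (median -0.32), of 42 translation factors 19 fell and 4 rose. Of 33 proteasome subunits 8 fell and none rose, a falling share of 24.2% against 22.2% of all genes. Of 14 genes of polyamine metabolism 6 rose and 6 fell. Srm, spermidine synthase, was among those that fell (-2.47 ± 0.21). Sat1, which acetylates polyamines for export, rose from 113, 110 and 128 to 442, 583 and 678 CPM (2.28 ± 0.19), and the antizymes Oaz1 and Oaz2 rose by 1.16 and 1.40. The cytoskeletal gene Actb fell from 3563, 2544 and 2359 to 800, 737 and 780 CPM (-1.87 ± 0.20, adjusted p = 9.82e-05, edgeR).

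Genes of cholesterol synthesis, targets of SREBP2, rose in 16 of 25 with none falling (median 0.78). Hmgcs1, which makes HMG-CoA, went from 120, 172 and 170 to 585, 561 and 548 CPM (1.87 ± 0.18, adjusted p = 6.75e-05, edgeR) and Msmo1, a sterol demethylase, from 53.3, 63.5 and 75.2 to 258, 269 and 310 CPM (2.13 ± 0.18). The treated samples of these genes were tight and clear of every None sample. The efflux transporter Abca1, a target of the sterol-sensing receptor LXR, rose as well (2.95 ± 0.24). In fatty acid metabolism Lpin1, a phosphatidate phosphatase, rose from 15.1, 12.7 and 22.0 to 240, 257 and 237 CPM (3.88 ± 0.23), while Fasn fell by 0.81 ± 0.22 on the log2 scale.

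Glycolysis and hypoxia-response genes rose in part, 12 of 22 and 13 of 20, with 2 and 1 falling. Vegfa, a hypoxia-induced angiogenic factor, went from 23.9, 37.8 and 25.1 to 259, 268 and 331 CPM (3.31 ± 0.22, adjusted p = 1.69e-05, edgeR), and Slc2a3, the glucose transporter GLUT3, from 71.0, 79.9 and 74.4 to 376, 267 and 329 CPM (2.11 ± 0.17). Hk2, hexokinase, moved the other way (-1.56 ± 0.23), and Hif1a and Slc2a1 were not called. Of 48 autophagy and lysosome genes 26 rose and 3 fell, Map1lc3b, for the autophagosome protein LC3B, by 2.70 ± 0.21 and Flcn and Fnip1, partners that control TFEB, by 2.04 and 2.60. Of 31 NRF2 targets 10 rose (32.3%) and 5 fell (16.1%), against 22.4% and 22.2% of all genes. Hmox1, heme oxygenase, rose from 13.8, 8.47 and 8.06 to 90.2, 178 and 256 CPM (4.11 ± 0.39), whereas Nqo1, Txnrd1, Gclm and Srxn1 were not called.

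Signalling pathways outside the cytokine axis held several of the largest rises. Hey1, a Notch target repressor (chromosome 3, 8663359 to 8667256, minus strand), was at 0.174, 0.154 and 0.181 CPM in None and at 10.7, 13.4 and 22.3 CPM with both inhibitors (6.5 ± 0.38, adjusted p = 1.07e-05, edgeR). Its relatives Hes1, Heyl and Hey2 rose from similarly low levels by 4.36, 4.63 and 3.81. Of 22 Notch pathway genes 10 rose (45.5%) and 4 fell (18.2%), against 22.4% and 22.2% of all genes. Among those that fell was Rbpj, the DNA-binding partner of Notch (-0.86). In the TGF-beta and activin pathway 14 of 33 rose and 3 fell: the inhibitor Smad7 went from 22.2, 18.2 and 19.7 to 250, 214 and 255 CPM (3.58 ± 0.17) and the activin antagonist Fst from 0.695, 0.215 and 0.393 to 11.1, 18.0 and 17.5 CPM (5.15 ± 0.42). The cyclic AMP phosphodiesterases Pde4b and Pde4d rose by 2.41 and 2.10. Ahr, the aryl hydrocarbon receptor, rose from 33.9, 29.8 and 34.8 to 172, 240 and 223 CPM (2.69 ± 0.18) and its target Tiparp by 3.71 ± 0.20, but Cyp1a1, its classical target, fell from 4.33, 1.09 and 6.0 to 0.251, 0.199 and 0.429 CPM (-3.68 ± 0.64). Of 17 circadian clock genes 11 rose and 2 fell, with Arntl, for BMAL1, at 31.6, 29.6 and 31.2 CPM in None and 109, 114 and 110 CPM with both inhibitors (1.85 ± 0.13).

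Long noncoding genes rose more often than they fell, and so did genes of low level in general. Of 2582 tested 31.8% rose and 6.89% fell, with a median log2 change of 0.89, against 21.1% and 27.4% of 13670 protein-coding genes with a median of -0.08. Among the 4649 genes of all types with the lowest mean levels, 17.6% rose and 3.96% fell, with a median of 0.58, and the part of level in the lean of long noncoding genes was not tested. The share that rose went with the neighbouring gene: of the noncoding genes of all kinds that overlap a tested protein-coding gene on the same strand, 59.0% of 256 rose where that gene rose, 36.0% of 472 where it was not called and 21.8% of 257 where it fell. Even where the overlapped gene fell, rises were more frequent than falls, with 6.61% falling on the same strand and 9.48% on the opposite strand. For overlap on the opposite strand the shares that rose were 53.6% of 345, 29.9% of 668 and 16.7% of 401. Of 1634 noncoding genes with no tested protein-coding gene within 10 kb, by the downstream and divergent positions searched, 16.9% rose and 8.08% fell. Whether counting used strand, or set aside reads shared between genes, is not known here, and a noncoding gene's counts may hold reads of its neighbour. This split by position was chosen after the values were seen.

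Of the genes tested, 143 had no count in any None library and 26 none in any treated library, and since such genes enter the test through the other group all of them differed. Gm20481, which overlaps Hspa1a, was at least 764-fold higher with both inhibitors against a floor of 3 counts per library (11.9, 34.5 and 56.6 CPM), and Gm20005, beside Hsph1, at least 43.1-fold. Neurog2, a neuronal transcription factor gene, was at 4.21, 1.81 and 2.52 CPM with both inhibitors and at 0 in None, at least 63.3-fold higher. Among named long noncoding genes Gm38126 (chromosome 1, 160755687 to 160759689, plus strand) rose from 0.0869, 0.338 and 0 to 5.15, 13.1 and 16.6 CPM. CT010467.1, which carries ribosomal RNA sequence, had 9602, 6230 and 5854 CPM in None and 21740, 15470 and 16590 CPM with both inhibitors (1.31 ± 0.24), a rise in RNA that library preparation usually removes.

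The combination was also set directly against each inhibitor alone, in a fit of all 4 groups. Replicate 2 of Kira8 and replicate 2 of Stattic stand apart, with 61.5% and 10.7% of counts from mitochondrial transcripts against at most 5.22% elsewhere, so the fit was made without them (10 libraries) and with them (12). Against Stattic alone 3 of 21239 genes (0.0141%) were called without them, with 874 at an unadjusted p under 0.05, and 0 of 20993 with them in edgeR, with 1050 at that level. Of these Gzma, for the cytotoxic protease granzyme A and a CD8 T and NK cell marker, had 49.8, 55.2 and 40.0 CPM in None, 61.6 and 42.6 CPM with Stattic alone, 10.9 and 10.4 CPM with Kira8 alone and 13.1, 10.8 and 9.4 CPM with both. The difference of the combination from Stattic alone was -2.23 ± 0.21 for Gzma (edgeR adjusted p = 0.00379 in 10 libraries, 0.971 in 12), and that from Kira8 alone 0.06 ± 0.21. In the outlying libraries, replicate 2 of Stattic and of Kira8, Gzma was at 0. The other 2 called were the gene models Gm21982 and Gm44503. Against Kira8 alone 6514 genes (30.7%) were called without the outlying libraries, 3116 of them higher in the combination, and 0 with them, with 2536 at an unadjusted p under 0.05. A gene not called against Stattic is not thereby shown to be equal, since Stattic then has 2 libraries.

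The named genes show where the combination sat. For Hspa1b the difference from Stattic alone was 0.26 ± 0.73 and from Kira8 alone 6.66 ± 1.00 (edgeR adjusted p 1.00 and 4.94e-04 in 10 libraries, 0.971 and 0.364 in 12). Bcl2 differed by 0.13 ± 0.25 from Stattic alone and by -1.87 ± 0.24 from Kira8 alone (adjusted p 1.00 and 2.04e-04 in 10 libraries, 0.985 and 0.364 in 12), and Bcl2l1 by 0.00 ± 0.22 and -1.96 ± 0.22. Lta, Ccl20 and Iigp1 lay within 0.19 of Stattic alone and were 1.87, 2.94 and 4.96 lower than with Kira8 alone. Other genes were not called against either inhibitor: Il17a in the combination differed by 0.12 ± 0.49 from Stattic alone and by 0.10 ± 0.49 from Kira8 alone, Pmaip1 by 0.06 ± 0.18 and 0.19 ± 0.18, and Stat3 by 0.03 ± 0.15 and 0.15 ± 0.15. Hspa5 was 1.31 ± 0.29 higher in the combination than with Kira8 alone (adjusted p = 0.00478 in 10 libraries, 0.399 in 12) and 0.06 ± 0.28 from Stattic alone. Hmgcs1 lay 0.59 ± 0.18 above Stattic alone and 0.16 ± 0.18 above Kira8 alone, neither called. The differences from Stattic alone and from Kira8 alone share the 3 Kira8+Stattic libraries.

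**Figure D5:**
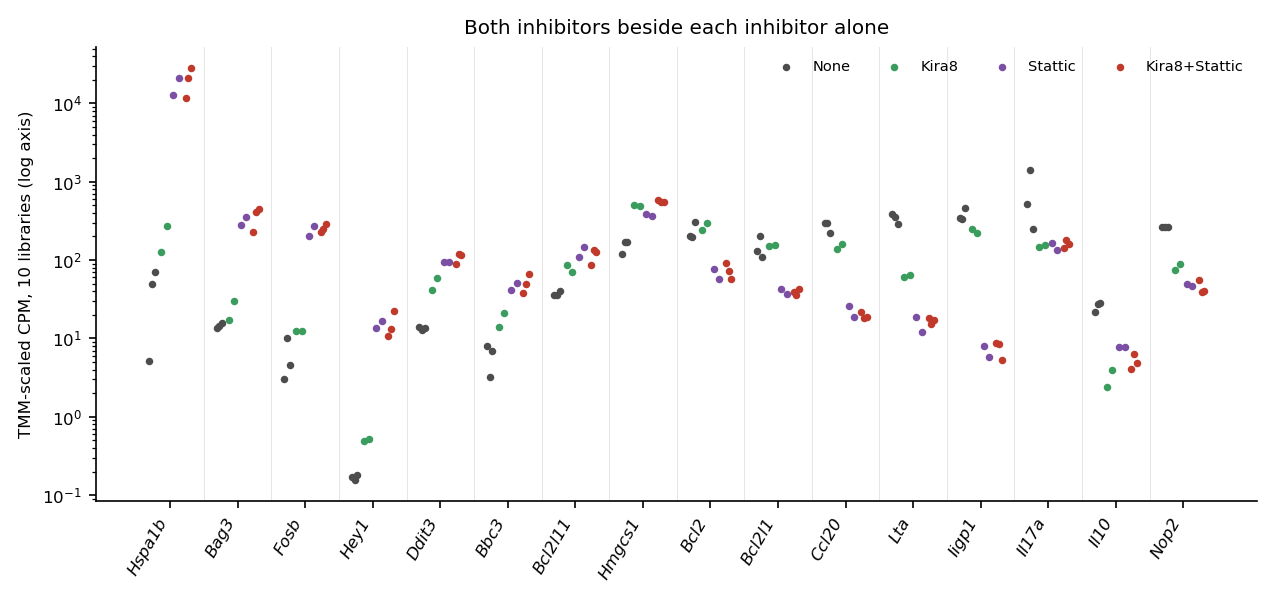
Levels of 16 genes in 10 libraries (CPM, log axis) for None (grey), Kira8 (green), Stattic (purple) and Kira8+Stattic (red), with 1 point per library and replicate 2 of Kira8 and of Stattic left out. For Hspa1b, Hey1, Bcl2, Lta and Iigp1 the red points lie with the purple ones and apart from the green, whereas for Il17a all 3 treated groups lie together below None.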

How the data were processed

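Messenger RNA was sequenced in 12 libraries, 3 per group, and the authors deposited a single table of raw read counts per Ensembl gene (55401 genes). Per the labels' protocols RNA was extracted with Trizol and used at an integrity number above 7.0, and per the submitters' processing notes the build was mm10. For the aligner, counter, annotation and strand setting, the sources used here give no name. Samples were grouped by their titles. The 6 libraries of None and Kira8+Stattic were filtered with filterByExpr, scaled by TMM and tested with edgeR 4.0.16 (glmQLFit and glmQLFTest), calling genes at a Benjamini-Hochberg adjusted p under 0.05. The standard error is the log2 change divided by the square root of F. The fit was first tested on simulated counts. Replicates differed by a chi-square of at least 47.3 per gene, so none is a copy. Positions and types come from GENCODE on mm10 and promoters from RefSeq on GRCm38.p6.

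The comparison and the 70 gene lists were chosen with earlier results of these data known, so no list is independent evidence. Named genes are 14 followed genes, the 15 largest rises and falls at a mean of at least 5 CPM without overlap, the 6 with most reads in each direction, 3 noncoding genes each way, 5 genes at 0 in each group and up to 4 members per list with the smallest adjusted p; some other members of the lists are named as well, picked once their values were known. Alternatives were DESeq2 1.42.0, limma 3.58.1 (voom), RLE size factors, library size alone, other filters, glmTreat at 1.5-fold, a block for the replicate number, fits of 4 groups, and leaving out each library.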

Additional observations from a re-analysis of the deposited data

How the results depend on the processing

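The 8282 genes called became 8942 with DESeq2, 8919 with limma voom, 8297 with RLE size factors, 8236 with library size alone, 7614 without a low-count filter, 7560 above 1 CPM in 3 libraries and 8676 in a fit of 4 groups without the outlying libraries. Library size alone called 3391 higher and 4845 lower, 41.2% higher against 50.2%. A test against a 1.5-fold change called 4767 genes, 2528 higher and 2239 lower. The fit of all 12 libraries called 57, 28 higher and 29 lower, with 2420 at an unadjusted p under 0.05; 274 of 299 named genes lost their call there, and the cause was not tested. Leaving out each library gave 6026 to 9172 called, 2906 to 4795 higher and 3120 to 4377 lower. With the replicate block (replicate number as a pair) 7947 genes were called, 4019 higher and 3928 lower. Deviations of samples with the same number correlated at 0.13, 0.095 and 0.013, so the numbers were not taken as pairing the samples. Of the 299 named genes none changed direction while called, 35 lost their call against a 1.5-fold change, and 0 to 12 under each other setting. A count of 3 was 0.0349 to 0.0581 CPM, which limits the genes near 0.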

Other observations

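Further lists held genes that moved in both directions. Among SR, hnRNP and CLK splicing genes 9 of 31 rose (29.0%) and 6 fell (19.4%), near the 22.4% and 22.2% of all genes. The kinases Clk1, Clk3 and Clk4, which phosphorylate splicing factors, rose by 2.26, 1.5 and 1.66, Clk1 from 151, 176 and 218 to 742, 939 and 930 CPM, while Clk2 (-0.82 ± 0.14) and Srsf1 (-1.36 ± 0.19) fell. Of 18 regulators of inflammatory mRNA decay 9 rose and 3 fell, with Zfp36, which destabilises cytokine transcripts, at 70.7, 60.1 and 94.6 CPM in None and 319, 391 and 476 CPM with both inhibitors (2.40 ± 0.23). Of 16 checkpoint and CD28-family genes 7 fell and 2 rose (median -0.55). Nt5e, the ectoenzyme CD73, rose by 1.5 ± 0.17, Cd226 fell by 2.47 on the log2 scale, and Pdcd1 was not called.

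Transcripts of the mitochondrial genome were unequal. The complex I genes mt-Nd6, mt-Nd1 and mt-Nd5 fell, mt-Nd1 from 4100, 3207 and 4296 to 1533, 2154 and 1917 CPM (-1.05 ± 0.19). The complex IV gene mt-Co1 was at 13350, 10940 and 13690 CPM against 15190, 20320 and 17880 CPM and was not called (0.49 ± 0.18). Of 13 mitochondrially encoded genes 3 fell (23.1%), near the 22.2% of all genes, and none rose. Of 51 nuclear respiratory chain genes 17 rose (33.3%) and 6 fell (11.8%), against 22.4% and 22.2% of all genes. Protein-coding genes with a single exon rose in 32.5% of 375 and fell in 17.3%, against 20.7% and 27.7% of 13295 with more exons.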
